A study of Rattus norvegicus with 12 samples.

Results

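The 10 genes of the osteoclast and of the RANKL system followed in cultured fetal rat metatarsals were Mmp9, Acp5, Ctsk, Calcr, Dcstamp, Nfatc1, Tnfrsf11a, Tnfsf11, Tnfrsf11b and Csf1. They were taken by symbol as a fixed set of 10 of the 30045 gene symbols in the count files with no threshold on a measured value, although earlier results of these data were known when the set was chosen. Of the 10 genes, 9 had at least 1 read in some library, and 6 (Mmp9, Acp5, Ctsk, Nfatc1, Tnfrsf11b and Csf1) had at least 60 reads in at least 2 libraries, the minimum for testing, which 12602 genes passed in all. Metatarsals of Sprague Dawley fetuses at embryonic day 19 were kept for 72 h in a DMEM/F12 medium with gentamicin, bovine serum albumin, β-glycerophosphate and ascorbic acid. The 4 conditions were control medium with the ethanol vehicle, the synthetic glucocorticoid dexamethasone (1 µM), the lithium salt LiCl (10 mM, with vehicle), and dexamethasone (1 µM) + LiCl (10 mM). Each condition had 3 libraries, and each library came from a pool of about 20 (± 2) whole bones, so that cartilage, the bone collar, vessels and blood-derived cells were read together. RNA sequencing gave 9055581 to 21953446 counted reads per library. Dexamethasone libraries (9263078 to 11685463) were shallower than control libraries 1 and 3, so rare transcripts had fewer reads behind them there. By the study's description each pool came from 1 rat and 3 rats were used, with bones spread at random over the conditions, but neither it nor the labels say which library numbers belong to which rat. Cartilage markers were abundant, with 7 chondrocyte genes summing to 50458 to 82654 CPM in every library.

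Osteoclasts are large multinucleated cells of the monocyte and macrophage line that dissolve mineralized cartilage and bone. Their precursors need CSF1, which acts through the receptor CSF1R, and RANKL (encoded by Tnfsf11), which acts through its receptor RANK (Tnfrsf11a). Osteoprotegerin (Tnfrsf11b) is a secreted decoy that binds RANKL. RANK signaling raises the transcription factor NFATc1, which in turn switches on the resorption genes. In a growing metatarsal these cells come in with the vessels that invade the hypertrophic cartilage.

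The resorption genes Mmp9 and Acp5 fell to 5.39% and 32.1% of control with dexamethasone and to 50.8% and 60.1% with LiCl, and neither passed the test when LiCl was added to dexamethasone. Neither Csf1 nor Tnfrsf11b, which encode signals around the osteoclast, passed the test in any comparison. Tnfsf11 and Dcstamp were at or near 0 reads in every library. Levels below are CPM, the counts of a library relative to its total after TMM scaling in edgeR, which evens out differences in RNA composition. Each change is on the log2 scale, with SE for its standard error, and comes from the quasi-likelihood test of edgeR on all 12 libraries. Adjustment of p followed Benjamini and Hochberg and ran over 12602 genes. A gene is said to have risen or fallen where its adjusted p was under 0.05. Since whole bones were read, fewer osteoclasts, less RNA per osteoclast and changes in other cells that make these genes cannot be told apart in any of these values.

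Mmp9 encodes gelatinase B, a protease of osteoclasts and invading vascular cells that clears cartilage matrix. It was at 47.7, 49.6 and 45.7 CPM in control libraries 1 to 3 and at 2.47, 1.67 and 3.57 CPM in the dexamethasone libraries. The LiCl libraries held 29.4, 13.3 and 30.0 CPM, and the dexamethasone + LiCl libraries 3.92, 1.82 and 5.64 CPM. The control libraries were the highest, the LiCl libraries lay between, and no library with dexamethasone reached the lowest library without it. Mean levels were 47.7 ± 1.95 CPM (SD, n = 3 pools) in control and 2.57 ± 0.953 CPM with dexamethasone, or 5.39% of control. On the log2 scale this was -4.25 with an SE of 0.36 (edgeR adjusted p = 8.33e-07), the lowest of the 12602 genes in this comparison. Mmp9 met the count minimum in 7 libraries, none of them with dexamethasone alone, so its place among the tested genes rested on the groups where it was high.

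Acp5 encodes tartrate-resistant acid phosphatase, the enzyme by which osteoclasts are stained. Its level was 16.8, 19.5 and 19.3 CPM in control and 5.77, 4.18 and 7.92 CPM with dexamethasone. With LiCl it was 10.3, 8.20 and 14.9 CPM, and with dexamethasone + LiCl 4.13, 6.54 and 6.22 CPM. The order of the groups was that of Mmp9, with LiCl below control and above both dexamethasone groups, while the dexamethasone groups overlapped. Dexamethasone lowered Acp5 to 32.1% of control, or by -1.66 on the log2 scale with an SE of 0.24 (edgeR adjusted p = 2.27e-04).

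Ctsk encodes cathepsin K, the acid protease that digests collagen in the resorption pit and that fibroblasts and chondrocytes of some layers also make. It stood at 105, 108 and 93.3 CPM in control, at 80.1, 79.3 and 88.0 CPM with dexamethasone, at 76.5, 72.0 and 80.5 CPM with LiCl, and at 69.0, 66.4 and 76.8 CPM with dexamethasone + LiCl. All 9 treated libraries lay below all 3 control libraries, but the shift was small beside that of Mmp9 or Acp5. With dexamethasone the log2 fold change was -0.31 (SE 0.08, adjusted p = 0.0280 from edgeR). This call was lost without control library 1 (adjusted p = 0.0755), control library 2 (0.0770), dexamethasone library 1 (0.0976) or dexamethasone library 2 (0.0922), with only the 2 groups in the fit (0.0966), and with counts thinned to the smallest library (0.0568).

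Promoter sequences, the stretch before each transcription start, are shown for Acp5 and Ctsk because both fell with dexamethasone, with LiCl and with both drugs against control, and RefSeq windows were at hand for them. In mouse and human cells, MITF and related factors are known to bind E-boxes with the letters CATGTG in osteoclast promoters, and capitals mark this motif on either strand (read as CACATG on the other). Each line gives the 250 bases before a start in RefSeq's GRCr8 rat assembly, 5′ to 3′ along the gene, and 2 starts are listed for Acp5. The coordinates are those of GRCr8 and not of the build used for counting, which is not settled.
Acp5, upstream start, chr8:28945931-28946180, minus strand: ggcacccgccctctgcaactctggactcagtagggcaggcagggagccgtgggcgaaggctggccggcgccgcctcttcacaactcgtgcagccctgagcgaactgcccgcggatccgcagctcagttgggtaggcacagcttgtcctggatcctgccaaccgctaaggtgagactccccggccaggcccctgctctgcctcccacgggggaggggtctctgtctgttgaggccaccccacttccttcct
Acp5, downstream start, chr8:28943930-28944179, minus strand: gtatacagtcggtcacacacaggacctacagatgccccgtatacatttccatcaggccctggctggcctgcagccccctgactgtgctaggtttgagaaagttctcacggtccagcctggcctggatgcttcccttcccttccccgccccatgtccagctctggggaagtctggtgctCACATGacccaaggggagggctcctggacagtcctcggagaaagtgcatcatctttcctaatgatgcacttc
Ctsk, chr2:185747298-185747547, plus strand: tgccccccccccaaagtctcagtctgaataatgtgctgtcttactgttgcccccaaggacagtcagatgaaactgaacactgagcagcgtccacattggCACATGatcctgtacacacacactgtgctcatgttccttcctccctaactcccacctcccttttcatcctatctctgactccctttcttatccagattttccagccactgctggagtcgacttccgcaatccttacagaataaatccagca
One E-box lies 72 bases before the downstream Acp5 start and one 151 bases before the Ctsk start (counted from the first base of the motif), and none lies in the upstream Acp5 window. Of 33469 rat windows of 250 bases, 12.1% held this motif. The NFAT core GGAAA, on either strand, occurred in the downstream Acp5 window (205 and 19 bases before the start, read as TTTCC) and in the Ctsk window (54 bases before the start), and in 56.9% of all windows. Neither the AP-1 motif TGANTCA (6.34% of all windows) nor the glucocorticoid receptor half-site AGAACA (17.5%), each on either strand, was found in these 3 windows or in those of Calcr and Tnfsf11, the other members with a window. These are matches of letters and say nothing of binding.

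Nfatc1, the transcription factor of osteoclast differentiation, is also used by chondrocyte precursors and heart valve endothelium. Its levels were 112, 95.6 and 110 CPM in control, 99.2, 78.7 and 95.5 CPM with dexamethasone, 113, 93.3 and 101 CPM with LiCl, and 100.1, 80.8 and 96.6 CPM with dexamethasone + LiCl. All 4 groups overlapped, and library 2 was the lowest of its group in 4 of 4 groups. With dexamethasone the log2 fold change was -0.22 (95% interval -0.45 to 0.01, adjusted p = 0.239 from edgeR). The same-numbered dexamethasone library was lower than its control library in 3 of 3 cases, and with the library number as a term, the replicate block, Nfatc1 passed (adjusted p = 0.0383 from edgeR).

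Tnfrsf11a, the gene of RANK, was below the count minimum. It had 32, 6 and 22 reads in control, 5, 16 and 5 with dexamethasone, 17, 14 and 20 with LiCl, and 3, 5 and 21 with dexamethasone + LiCl. The groups overlapped in every comparison. With the looser filter filterByExpr the change with dexamethasone was -0.38 on the log2 scale (95% interval -1.43 to 0.66, adjusted p = 0.695 from edgeR), and the interval spans falls and rises, so no difference was detectable at this depth.

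The other 3 members stayed at the limit of detection. Tnfsf11, the ligand RANKL, had 1 read in each of 3 libraries (control 3, dexamethasone 2 and LiCl 2) and none in the other 9. Dcstamp, a membrane protein needed for fusion of osteoclast precursors, was listed at 0 in all 12 libraries. Calcr, the calcitonin receptor of mature osteoclasts, had 3, 1 and 2 reads in control, 0 in each dexamethasone library, 4, 0 and 5 with LiCl, and 0, 0 and 3 with dexamethasone + LiCl. A count of 0 allows up to 3 reads, or 0.134 to 0.335 CPM in these libraries, and intervals of this kind cover counting error only. No fold change is given for these genes, and the planned ratio of Tnfsf11 to Tnfrsf11b was not formed because its numerator was at or under 1 read throughout.

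**Figure D1:**
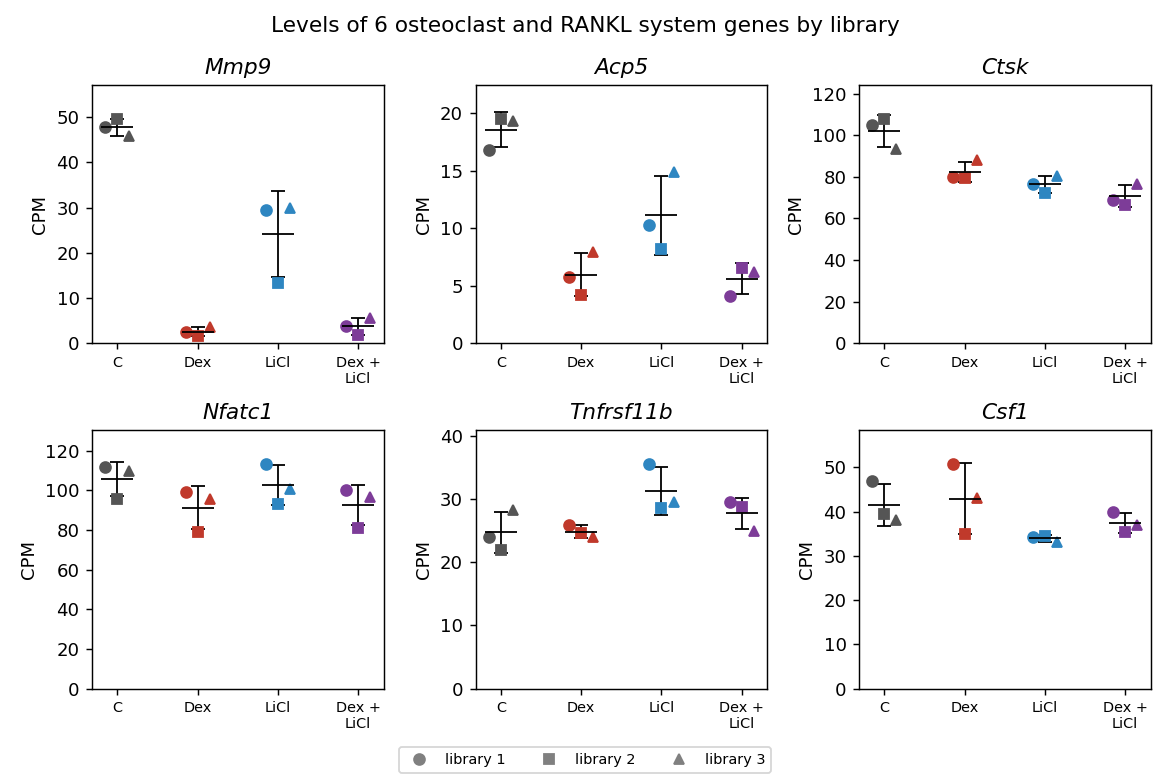
Levels in CPM of Mmp9, Acp5, Ctsk, Nfatc1, Tnfrsf11b and Csf1 by condition (C, control; Dex, dexamethasone), with 1 point per library, its shape giving the library number, and a bar for the mean with its SD (n = 3 pools). Mmp9 falls from a mean of 47.7 CPM in control to 2.57 CPM with dexamethasone, and Nfatc1 library 2 is the lowest of its group in all 4 groups.

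Tnfrsf11b, the decoy osteoprotegerin made by osteoblasts and chondrocytes, was at 24.0, 21.9 and 28.2 CPM in control and at 26.0, 24.6 and 24.0 CPM with dexamethasone. With LiCl it was at 35.6, 28.6 and 29.5 CPM, and with dexamethasone + LiCl at 29.6, 28.7 and 24.9 CPM. The 3 LiCl libraries lay above the 3 control libraries, and all other pairs of groups with control overlapped. The log2 fold change with LiCl was 0.33 (95% interval 0.09 to 0.57), which did not pass (unadjusted p = 0.0109, adjusted p = 0.0791 from edgeR) and passed only without control library 3 (adjusted p = 0.0356) among the 12 fits with 1 library left out. With dexamethasone it was -0.00013 (95% interval -0.25 to 0.25).

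Csf1, the growth factor of osteoclast and macrophage precursors, was at 47.0, 39.4 and 38.0 CPM in control, at 50.8, 34.9 and 43.1 CPM with dexamethasone, at 34.3, 34.5 and 33.0 CPM with LiCl, and at 39.8, 35.4 and 36.9 CPM with dexamethasone + LiCl. The LiCl libraries were the lowest set and lay below control without overlap, whereas the dexamethasone libraries spread across the control range. The change with LiCl was -0.29 on the log2 scale (95% interval -0.54 to -0.04, adjusted p = 0.129 from edgeR), and with dexamethasone 0.04 (95% interval -0.21 to 0.30, adjusted p = 0.860).

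Taking the comparisons in turn, dexamethasone against control asked what the glucocorticoid does alone. Of the 6 tested members, 3 (Mmp9, Acp5 and Ctsk) were lower and none was higher at an adjusted p under 0.05, where 5.49% of all 12602 genes were lower and 5.45% higher (10.9% in all). With a 2-fold minimum added, 2 members were lower, where 1.26% of all genes were. The median log2 fold change of the 6 was -0.26, against 0.0021 over all genes. Of 18 genes of the resorption machinery fixed as a second list, 13 met the count minimum, of which 6 were lower and none higher (median -0.35). Car2, the carbonic anhydrase that supplies acid, was at 7.53, 6.75 and 6.82 CPM in control and at 0.927, 0.835 and 2.12 CPM with dexamethasone, a log2 fold change of -2.48 (SE 0.36). Like Mmp9, it was under the count minimum with dexamethasone (9 to 19 reads per library) and was tested through the groups where it was high. The others with the smallest adjusted p were Tcirg1, the osteoclast subunit of the proton pump (-0.41, SE 0.08), the membrane protease Mmp14 (-0.44, SE 0.10) and the podosome scaffold Sh3pxd2a (-0.42, SE 0.09).

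A further 4 resorption genes were counted but fell short of the count minimum. Atp6v0d2, a proton pump subunit used in fusion, had 28, 20 and 39 reads in control, 0, 1 and 7 with dexamethasone, 17, 7 and 32 with LiCl, and 2, 0 and 0 with dexamethasone + LiCl. Siglec15, a receptor of the same program, had 10, 7 and 8 reads in control and 8, 2 and 10 with LiCl, but 0 in all 6 libraries with dexamethasone. For Siglec15 the summed control level was 4.89-fold the floor of 3 reads over the dexamethasone group and 5.98-fold that over the dexamethasone + LiCl group. These ratios leave out the counting error of the 25 control reads and the spread between pools, so they are not lower bounds. Oscar, a costimulatory receptor, had 26, 10 and 18 reads in control, 2, 4 and 2 with dexamethasone, 9, 14 and 13 with LiCl, and 7, 1 and 5 with dexamethasone + LiCl. Slc9b2, a sodium and proton exchanger, had 39, 23 and 46 reads in control, 14, 16 and 11 with dexamethasone, 15, 14 and 18 with LiCl, and 3, 10 and 13 with dexamethasone + LiCl. With filterByExpr in place of the count minimum, Atp6v0d2 (log2 fold change -2.62, SE 0.76, adjusted p = 0.0343 from edgeR) and Oscar (-1.92, SE 0.53, adjusted p = 0.0263) fell with dexamethasone, and Slc9b2 did not pass (-0.62, SE 0.31, adjusted p = 0.247). Atp6v0d2 (0 to 7 reads per dexamethasone library) and Oscar (2 to 4) were tested through the groups where they were high. Ocstamp, the 18th gene of the list, was not analysed here.

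**Figure D2:**
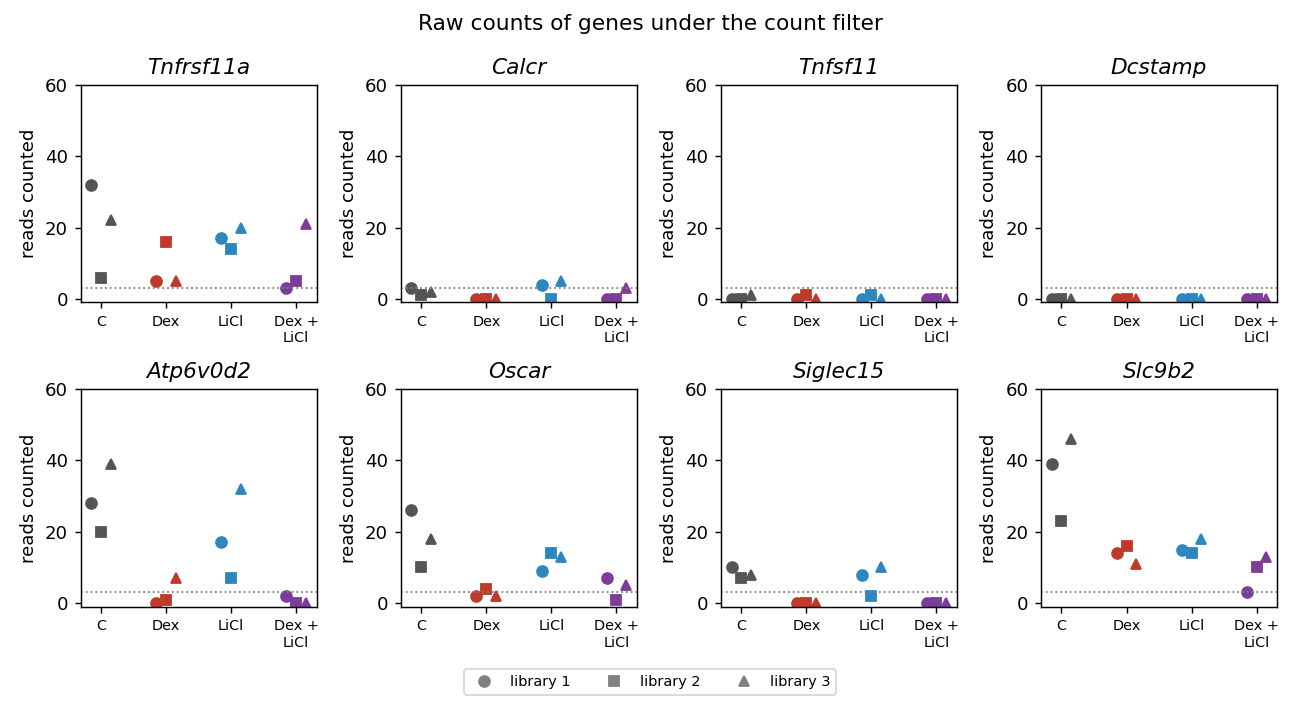
Raw reads per library for Tnfrsf11a, Calcr, Tnfsf11 and Dcstamp, and for Atp6v0d2, Oscar, Siglec15 and Slc9b2, by condition (C, control; Dex, dexamethasone), not scaled for depth. Points are libraries, the dotted line is the floor of 3 reads, and Siglec15 is at 0 reads in all 6 libraries with dexamethasone while every control library has at least 7.

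Among 23 receptors and signal carriers downstream of CSF1 and RANK, 20 were tested, with 2 higher and 3 lower with dexamethasone (median -0.06). The 3 that fell carry signals of the receptor complex or relieve repression of Nfatc1. Prdm1, a repressor known from the mouse to silence inhibitors of osteoclast formation, was at 5.69, 7.30 and 6.37 CPM in control and 0.618, 1.42 and 1.00 CPM with dexamethasone (log2 fold change -2.62, SE 0.30, adjusted p = 2.5e-05 from edgeR). The phospholipase gene Plcg2 fell by 1.37 (SE 0.15) and the kinase gene Syk by 1.51 (SE 0.26) on the log2 scale. Prdm1 (6 to 17 reads per library) and Syk (19 to 35) were under the count minimum with dexamethasone. Both were tested through the groups where they were high. Mapk14, the p38 kinase, rose by 0.42 (SE 0.09). Csf1r, the receptor of CSF1, was at 29.5, 19.5 and 20.4 CPM in control and at 18.5, 24.7 and 19.3 CPM with dexamethasone, with overlapping groups. Spi1, the PU.1 factor of the myeloid line, was under the count minimum with 85, 29 and 36 reads in control and 12, 14 and 8 with dexamethasone (-1.33, SE 0.33, adjusted p = 0.0150 with filterByExpr in edgeR). Of 13 inhibitors of osteoclast formation, 12 were tested, 2 were higher and 3 lower (median -0.15). Nfkbia, which holds NF-κB in the cytoplasm, rose to 68.6 ± 7.51 CPM from 32.1 ± 2.33 CPM (SD over 3 pools). Bcl6, a repressor of osteoclast genes in the mouse, rose to 53.2 ± 1.62 CPM from 32.8 ± 1.65 CPM. Among the 3 that fell were Rcan1, which restrains calcineurin (21.8 ± 2.24 CPM against 30.0 ± 2.59 CPM), and Sfrp1, a secreted Wnt antagonist (101 ± 10.6 CPM against 138 ± 13.3 CPM).

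Markers of other cells also changed in the same comparison, in either direction. Of 12 tested macrophage or monocyte markers, 5 were higher and 1 was lower with dexamethasone, and the summed level of the 14 of 15 listed genes present in the files was 214 to 236 CPM against 114 to 165 CPM in control. The median log2 fold change of the 12 was -0.29, below 0 although the sum was higher. The rise in the sum lay mostly in Mrc1 (51.2 CPM against 11.5 CPM in control), C1qb (42.7 against 9.73 CPM) and the scavenger receptor gene Cd163 (15.2 against 0.0149 CPM). Cd163 had 1 read in all over the control libraries and 111 to 213 per dexamethasone library. It was thus tested through the groups where it was high, and its control value lies at the floor. The lysosomal marker Cd68 fell from 24.3 to 17.1 CPM, and the 6 markers that did not pass had log2 fold changes of -0.78 to -0.16. Of 8 endothelial markers 7 were lower, with sums of 83.8 to 88.8 CPM against 208 to 232 CPM in control. The part of these cells in the fall of Mmp9 and Acp5 was not tested. Neutrophils also make Mmp9, and the sum of 8 neutrophil markers was at most 1.39 CPM in any library, with Ltf at 0 throughout. T cells are a source of RANKL, and of 5 T cell markers only Cd4, which rat macrophages also carry, met the count minimum, with Cd3e at 0.

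LiCl alone against control lowered Mmp9, Acp5 and Ctsk. Of the 6 tested members 3 were lower and none higher, where 5.9% of all genes were lower and 4.71% higher (10.6% in all), and the median of the 6 was -0.35 against 0.00092 over all genes. Ctsk had the firmest call, at 74.8% of control, or -0.42 on the log2 scale with an SE of 0.08 (edgeR adjusted p = 0.00498). Mmp9 fell to 50.8% of control, or by -0.98 with an SE of 0.26 (edgeR adjusted p = 0.0243), and Acp5 to 60.1%, or by -0.73 with an SE of 0.21 (edgeR adjusted p = 0.0413). With the added 2-fold minimum no member was lower, where 0.77% of all genes were. LiCl library 2 was the lowest of its group for both genes. Without it Mmp9 changed by -0.68 (adjusted p = 0.0765) and Acp5 by -0.54 (adjusted p = 0.169), and only Ctsk passed. Without control library 1 also only Ctsk passed (adjusted p = 0.0556 for Mmp9 and 0.0576 for Acp5). The Acp5 call was lost without any 1 of 7 libraries (adjusted p 0.0505 to 0.169), and the Mmp9 call was lost with DESeq2's Wald test (adjusted p = 0.125).

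The resorption list had 4 lower and 1 higher of 13 tested with LiCl (median -0.11). Those were Itgb3, the β3 integrin of the sealing zone, at 4.34, 5.59 and 7.33 CPM against 10.5, 8.13 and 10.0 CPM in control (-0.73, SE 0.17), the kinase gene Src (-0.35, SE 0.09), the vesicle gene Snx10 (-0.70, SE 0.19) and Car2 (-1.04, SE 0.28), while Itgav, the partner of Itgb3, rose by 0.31 (SE 0.08). Car2 had 38 to 104 reads per LiCl library and 73 to 168 per control library, so its place among the tested genes rested mostly on control. Slc9b2 fell by 1.22 on the log2 scale (SE 0.30, adjusted p = 0.0170 with filterByExpr in edgeR). Of 20 signal genes, 3 were lower and 1 higher (median -0.05), with Csf1r at 14.8, 15.9 and 15.9 CPM, below all control libraries (-0.59, SE 0.16). Macrophage markers were lower too, with 6 of 12 lower and none higher and sums of 96.9 to 100.4 CPM against 114 to 165 CPM in control. Aif1 (27 to 49 reads per LiCl library) and Cd14 (35 to 53) were among the tested markers under the count minimum with LiCl. They were tested through groups where they were higher. The part of macrophages in the fall of Acp5 and Mmp9 was not tested. None of the 8 endothelial markers passed, with sums of 192 to 213 CPM.

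Dexamethasone + LiCl against dexamethasone asked whether LiCl moves these genes in the presence of the glucocorticoid. None of the 6 members passed with edgeR or DESeq2, where 8.6% of all genes passed (4.78% lower and 3.82% higher). With the added 2-fold minimum 0.595% of all genes were lower, and no member was. At an unadjusted p under 0.05 the count was 1 member, Ctsk, and 22.7% of all genes. Mmp9 differed by 0.67 (95% interval -0.31 to 1.64), Acp5 by -0.04 (-0.61 to 0.53), Ctsk by -0.22 (-0.40 to -0.04), Nfatc1 by 0.02 (-0.21 to 0.26), Tnfrsf11b by 0.15 (-0.10 to 0.41) and Csf1 by -0.20 (-0.46 to 0.06) on the log2 scale. The interval for Mmp9 includes a rise of more than 2-fold, so a partial return was not detectable at 20 to 97 reads per library, and it does not reach the distance to control. Of the 13 resorption genes and the 20 signal genes none passed (medians -0.00029 and 0.06). Of 12 tested inhibitors 1 was higher and 1 lower, the former being Bcl6, which rose by 0.30 (SE 0.09). Among local factors the chemokine gene Cxcl12, which draws osteoclast precursors, fell by 0.79 (SE 0.11).

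With both drugs against control, 3 of 6 members (Mmp9, Acp5 and Ctsk) were lower and none higher, where 11.8% of all genes were lower and 10.8% higher (22.6% in all), with a median of -0.36 against 0.0085 over all genes. Mmp9 was at 7.95% of control (log2 fold change -3.58, SE 0.32, adjusted p = 1.14e-06 from edgeR), Acp5 at 30.4% (-1.69, SE 0.24, adjusted p = 9.17e-05) and Ctsk at 69.3% (-0.53, SE 0.08, adjusted p = 3.26e-04). Each of these 3 calls held in every alternative test that was run, and with the added 2-fold minimum Ctsk dropped out, leaving 2 members where 2.1% of all genes were lower. Nfatc1 did not pass (-0.19, 95% interval -0.43 to 0.04, adjusted p = 0.221) but did with the replicate block (adjusted p = 0.0388). Of 13 resorption genes 6 were lower and 1 higher (median -0.16), with Car2 at 1.20, 1.18 and 2.09 CPM (-2.17, SE 0.33). Of 20 signal genes 6 were lower and 2 higher (median -0.06), with Prdm1 (-2.21, SE 0.28) and Plcg2 (-1.13, SE 0.15) foremost. Car2 (11 to 36 reads per library) and Prdm1 (13 to 21) were under the count minimum in the group with both drugs as well. Among 13 tested local factors that set RANKL, osteoprotegerin or CSF1, 4 were lower and 2 higher (median -0.08), where Cxcl12 fell by 0.98 (SE 0.11) and the prostaglandin receptor gene Ptger4 rose by 1.67 (SE 0.29). Ptger4 had 20 to 54 reads per control library, so it was tested through the group where it was high. In the other comparisons 1 of these 13 was higher and 2 lower with dexamethasone, 2 higher and 1 lower with LiCl, and 1 higher and 2 lower when LiCl was added to dexamethasone. In the group with both drugs the macrophage sums were 155 to 185 CPM and the endothelial sums 96.2 to 106 CPM. Skeletal muscle genes summed to 131 to 164 CPM against 25.5 to 26.1 CPM in control, and osteoblast genes to 9363 to 12346 CPM against 14952 to 18958 CPM. Most of the osteoblast sum was Col1a1 (mean 9791 CPM against 16108 CPM in control). Of 9 tested osteoblast genes 4 were lower, 1 was higher and 4 did not pass. The part of these cells in the results was not tested. These comparisons share the control libraries, so their values are given side by side and are not independent of each other.

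Dexamethasone was also compared within LiCl medium. Of the 6 members 2 were lower and none higher in dexamethasone + LiCl than in LiCl, where 3.09% of all genes were lower and 3.79% higher (6.87% in all). With the added 2-fold minimum 1 member was lower, where 0.659% of all genes were. Mmp9 fell by 2.60 (95% interval -3.30 to -1.90, SE 0.33, adjusted p = 8.66e-05 from edgeR) on the log2 scale. Acp5 fell by 0.97 (SE 0.24, adjusted p = 0.0207), a call lost without LiCl library 3 (adjusted p = 0.142), dexamethasone + LiCl library 1 (0.102) or dexamethasone + LiCl library 3 (0.0522). Ctsk differed by -0.11 (95% interval -0.29 to 0.07). Of 13 resorption genes 2 were lower and 1 higher, the latter being Itgb3 (1.01, SE 0.18), which stood at 11.3, 12.2 and 11.7 CPM with both drugs.

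The interaction term asked whether dexamethasone did less in LiCl medium than in control medium. No member passed with edgeR or DESeq2, where 0.00794% of all genes (1 gene) passed. At an unadjusted p under 0.05 the count was 1 of 6 members and 5.59% of all genes. That member was Mmp9, whose fall with dexamethasone was smaller by 1.65 on the log2 scale in LiCl medium (95% interval 0.54 to 2.76, unadjusted p = 0.00645, adjusted p = 0.738 from edgeR). With no count filter the same term had an SE of 0.32 in place of 0.52 and an adjusted p = 0.00284, and in the other fits that were run it did not pass. For Acp5 the term was 0.69 (95% interval -0.04 to 1.42).

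**Figure D3:**
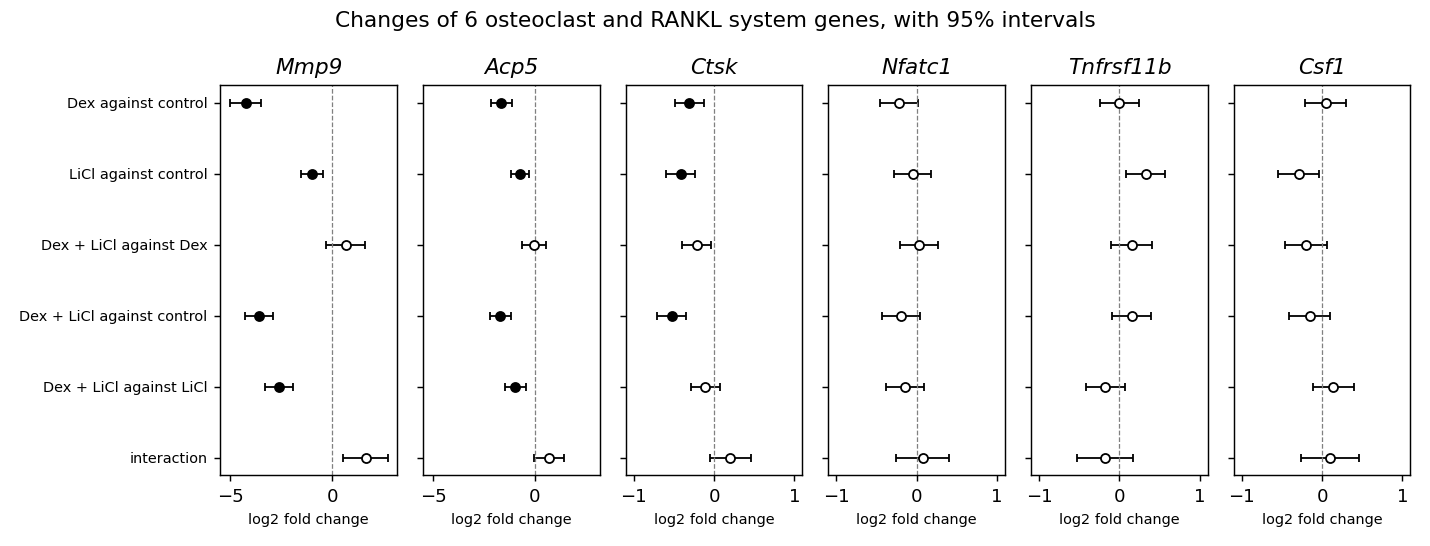
Log2 fold changes with 95% intervals (horizontal axis) of Mmp9, Acp5, Ctsk, Nfatc1, Tnfrsf11b and Csf1 in 5 comparisons and for the interaction of the drugs, with filled points for an adjusted p under 0.05 from edgeR and a wider axis for Mmp9 and Acp5. Filled points are found for Mmp9, Acp5 and Ctsk only, and no row for LiCl added to dexamethasone has one.

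Across the 12 libraries, log2 CPM of Mmp9 and Acp5 had a Pearson r of 0.92. The correlation was 0.64 for Mmp9 and Ctsk, 0.75 for Acp5 and Ctsk, and 0.73 for Mmp9 and Nfatc1, while Csf1 had -0.10 with Mmp9 and 0.0039 with Acp5, and Tnfrsf11b had 0.08 with Mmp9 and -0.61 with Ctsk. These values describe 4 groups of 3 libraries and carry the differences between the groups, so no p is given. Of the 12602 tested genes, those most like Acp5 were Car2 (r = 0.96), the cartilage matrix gene Cilp2 (0.96) and the sugar phosphate transporter gene Slc37a2 (0.96). Those most like Mmp9 were the transcription factor gene Sox4 (0.97), the growth factor gene Bmp2 (0.96) and the ETS factor gene Elk3 (0.96). Ctsk was nearest to Cmtm3, Ifngr2 and Col16a1 (each 0.95), and Nfatc1 to Tle3 (0.97), Smpd3 (0.94) and Sufu (0.94). The nearest genes of Tnfrsf11b (Coa5, r = 0.90) and Csf1 (Egr1, r = 0.89) were less close.

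Set against Csf1r, a gene of the whole macrophage line, Acp5 did not follow one line over the groups. Dexamethasone libraries had 18.5 to 24.7 CPM of Csf1r with 4.18 to 7.92 CPM of Acp5, and LiCl libraries had 14.8 to 15.9 CPM of Csf1r with 8.20 to 14.9 CPM of Acp5. All 3 LiCl libraries were thus lower in Csf1r and higher in Acp5 than all 3 dexamethasone libraries. Csf1r is a single marker named after its values were seen, and other macrophage markers did not all separate these groups. Aif1 did, with 1.92 to 2.56 CPM with LiCl and 2.88 to 3.59 CPM with dexamethasone. Cd68 overlapped (13.7 to 16.1 and 14.7 to 19.2 CPM), as did Ptprc (4.28 to 5.34 and 2.90 to 4.84 CPM).

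**Figure D4:**
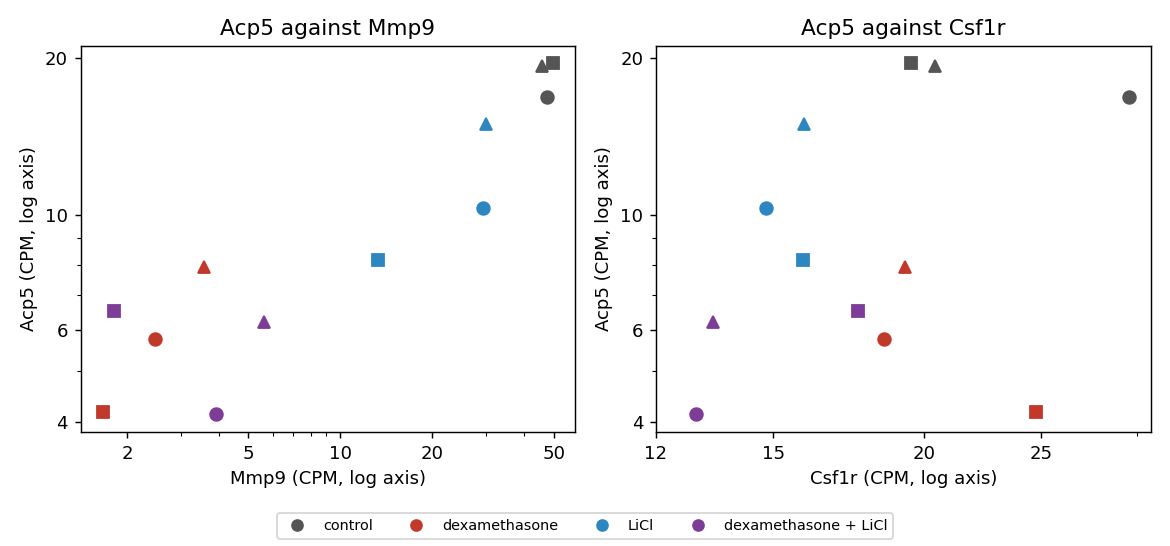
Acp5 against Mmp9 (left) and against Csf1r (right) in CPM on log axes, with 1 point per library, colored by condition, and the shape giving the library number as in the plot of levels. Control libraries sit at the upper right on the left side, and on the right side the 3 dexamethasone libraries lie at higher Csf1r and lower Acp5 than the 3 LiCl libraries.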

How the data were processed

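The authors deposited raw counts for each gene symbol. By the study's methods, reads from a strand-specific poly-A library were aligned with Subread, duplicated reads were removed with Picard, genes were counted with HTSeq-count and technical replicates were merged, and removal of duplicates can hold down abundant transcripts. Versions are not given in the sources used here, and the build is not settled, since the one in the submitters' processing notes is human. All 360540 values of the series-wide table equal those of the per-sample files. Each column used from that table belongs to a library of this series.

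The study's filter, a minimum of 60 counts reached in 2 or more libraries, was applied. After TMM scaling, edgeR 4.0.16 under R 4.3.3 fitted all 12 libraries by the quasi-likelihood method with no term but the condition, and tests were two-sided. The study's 2-fold minimum was an alternative, beside RLE scaling, DESeq2 1.42.0 (the tool of the study), filterByExpr, no filter, the replicate number as a term, only the groups compared and each library left out. Counts thinned to the smallest library were added after the data were seen. The test was checked on simulated counts.

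Libraries were grouped by their titles. The study describes 3 experiments and 3 rats, with 1 pool per rat and group, but does not tie the numbers to them. Deviations of same-numbered libraries correlated at 0.13 to 0.50 in the pairs of groups compared, except dexamethasone and control (0.03 to 0.17). Those of differently numbered libraries correlated at -0.46 to 0.09 in these pairs. Deviations within a group of 3 sum to 0, so these ranges are not independent of each other. The tests of the report leave the number out, and the value with it as a term is given where it changes a call. The members and lists were chosen with earlier results of these data known. Named genes are the members, up to 4 genes per list and comparison with the smallest adjusted p, and the 3 genes most correlated with a member (prior count 2). The genes under the count minimum, Car2 with LiCl, Col1a1 with both drugs, and Csf1r, Cd68, Aif1, Cd14, Ptprc, Ltf and Cd3e as markers, were named after their values were seen. Plots used matplotlib 3.10.9 with pandas 2.3.3 under Python 3.11.15. The results of 1 gene of the inhibitor list are not reported here.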

Additional observations from a re-analysis of the deposited data

How the results depend on the processing

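Of the 6 tested members, the number passing was within 1.5 times the main count under every alternative for dexamethasone against control (main count 3), LiCl added to dexamethasone (0) and both drugs against control (3). A fall from 3 to 2 is within this limit. For dexamethasone against control the Ctsk call was lost in the fits given with its levels above. With a 2-fold minimum the number passing for LiCl against control went from 3 to 0, and for dexamethasone + LiCl against LiCl from 2 to 1, because changes under 2-fold are then not counted. With 1 library left out these numbers ranged from 1 to 3 and from 1 to 2. For the interaction, no count filter gave 1 (Mmp9) in place of 0, and the cause was not tested. With the replicate number as a block the numbers passing were 4, 3, 0, 4, 2 and 0 in the order of the 6 comparisons, the 4th gene being Nfatc1 in both cases. Its adjusted p in edgeR with this block was 0.0383 for dexamethasone against control and 0.0388 for both drugs against control, and the block changed no other call of a member. Values near 0 changed sign without passing. For dexamethasone against control Tnfrsf11b was 0.0027 with the block, 0.0088 with thinned counts and 0.0033 with only the 2 groups fitted, and ranged from -0.072 to 0.11 with 1 library left out. Leaving out 1 library gave -0.10 to 0.17 for Csf1 in that comparison, -0.12 to 0.017 for Nfatc1 with LiCl, -0.25 to 0.22 for Acp5 and -0.066 to 0.11 for Nfatc1 when LiCl was added to dexamethasone, and -0.019 to 0.16 for Nfatc1 and -0.033 to 0.23 for Csf1 in the interaction. Tnfrsf11a, Calcr, Tnfsf11 and Dcstamp were under the count minimum, so no call could be made for them there. Whether depth accounts for their low counts was not tested, and the build used for counting is not settled. No other setting was run for the ratio of Tnfsf11 to Tnfrsf11b, which was not formed.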
